A study of Drosophila melanogaster with 14 samples.

Results

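CP190 binding was compared between flies with wild-type dCTCF and flies labelled dCTCFdelta705-733, called the deletion line here, which carry a deletion in dCTCF. The members are all CP190 peaks deposited for the 2 genotypes, 2517 in wild type and 3164 in deletion flies, which is 5681 of the 8279 peaks of the series. Chromatin came from whole adult Drosophila melanogaster of 2 to 3 days, labelled with the strain Oregon-R in both genotypes and in the control, and was recovered with a mouse antibody against CP190 in 2 replicate libraries per genotype. Both lists were set against the same mouse preimmune library, which is labelled wild type, so the deletion line had no control from its own genotype. Other lists of the series, which serve below only to mark where dCTCF was found, come from an HA antibody and a dCTCF antibody in the same 2 genotypes. Whole flies mix all tissues, and fewer cells that carry CP190 at a site cannot be told apart from less CP190 per cell.

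CP190 is a BTB-domain and zinc-finger protein found at insulators and at many promoters in Drosophila. It is brought to chromatin largely by DNA-binding insulator proteins, of which dCTCF, the fly homologue of CTCF, is one, and Su(Hw) and the Ibf proteins are others. Sites with CP190 often lie between neighbouring chromatin domains and next to constitutively active genes. By its title, the study deals with dCTCF acting independently of CP190, and the CP190 lists show where CP190 was called in each genotype.

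Each genotype has 1 peak list for its 2 replicates, so no value below has a replicate error and no test between genotypes was possible. Depth is unknown, since the lists hold no read counts. Intervals are 95% Wilson intervals and cover the counting of peaks only. A list gives, for each peak, the authors' fold enrichment of ChIP over preimmune DNA, and the −log10 p-value of 2 sets of peak calls that were compared by the irreproducible discovery rate (IDR), a score of how well a peak repeats. What the 2 sets are is not stated, but the distance between them is the closest available yardstick for technical spread. Both lists end at a global IDR of 0.01, so they hold only peaks that repeat well between the sets. No such limit acts between genotypes, so for ranks this yardstick is a low one. Fold enrichment is used here to rank peaks within their own list.

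The lists shared most of the wild-type sites. Of the 2517 wild-type peaks, 165 overlapped no deletion peak, which is 6.56% (interval 5.65 to 7.59). Of the 3164 deletion peaks, 825 overlapped no wild-type peak, or 26.1% (24.6 to 27.6). With both lists held to their 2517 strongest peaks, 2213 wild-type peaks (87.9%) and 2199 deletion peaks (87.4%) had a partner. Lists of equal length must give nearly equal shares where overlapping peaks rarely have a further partner. In the full lists, 2320 of 2354 overlaps joined peaks without a further partner. The contrast between the shares thus largely restates the lengths of the lists, and why the deletion list is longer was not tested. The 165 and 825 unpartnered peaks of the full lists were narrow and weak. Their median width was 524 bp in wild type and 558 bp in the deletion line, against 841 and 934 bp for the peaks with a partner. Median fold enrichment of the unpartnered peaks was 3.50 in wild type, against 7.55 with a partner in the same list, and 3.55 in the deletion line, against 10.8.

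Unpartnered peaks accumulated at the bottom of the deletion list. In its strongest 4 deciles, 5, 1, 0 and 1 peaks lacked a wild-type partner, out of 316 or 317 each. From the fifth decile on the number grew steadily, from 10 of 316 to 277 of 317 in the weakest decile (87.4%, 83.3 to 90.6). In the wild-type list the weakest decile held 62 unpartnered peaks of 252 (24.6%, 19.7 to 30.3), and each of the 5 strongest deciles held between 3 and 8. The 5 weakest deciles, with 47, 98, 163, 223 and 277 unpartnered peaks, lay below the median enrichment of 7.27-fold and reached down to 2.07-fold.

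**Figure D1:**
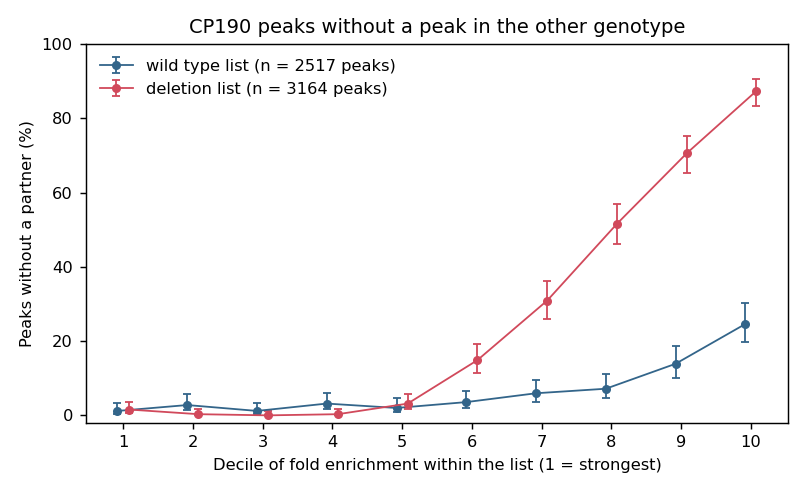
Share of CP190 peaks without an overlapping peak in the other genotype (percent) by decile of fold enrichment within the list, with decile 1 the strongest; bars are 95% Wilson intervals. The deletion list climbs to 87.4% in its weakest decile, whereas the wild-type list reaches 24.6%.

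Few of the unpartnered peaks were near misses. Only 14 of the 165 in wild type (8.48%) and 30 of the 823 in the deletion line that could be compared (3.65%) lay within 1 kb of a peak of the other genotype. The median gap to the nearest such peak was 10497 bp in wild type and 13254 bp in the deletion line.

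All chromosome arms took part in the longer deletion list except chromosome 4. The share of unpartnered deletion peaks was lowest on 3L, with 155 of 628 (24.7%, 21.5 to 28.2), and highest on X, with 177 of 617 (28.7%, 25.3 to 32.4), so that the intervals overlap. In between lay 2L with 147 of 574, 2R with 149 of 572 and 3R with 195 of 750. Chromosome 4 had 16 wild-type and 15 deletion peaks, and all 15 had a partner, which allows a share of up to 20.4% by the upper bound of the interval. Relative to gene number the X chromosome carried the most peaks of the 5 large arms in both lists, with 21.7 peaks per 100 protein-coding genes in wild type and 28.1 in deletion flies. The other 4 large arms had 16.1 to 18.8 in wild type and 20.1 to 22.9 in the deletion line.

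Where a peak was present in both genotypes, its position hardly moved. There were 2320 pairs in which each peak overlapped exactly 1 peak of the other list. Their summits lay a median of 13 bp apart between genotypes (quartiles 5 and 27 bp), and 98.5% were within 200 bp. The 2 sets of calls within a list gave nearly the same distances for these peaks, with a median of 12 bp in wild type and 11 bp in the deletion line. The stronger 1160 pairs had a median of 9 bp and the weaker 1160 pairs 18 bp. Only 34 pairs had summits over 200 bp apart, against 11 and 20 between the sets of wild type and deletion. Pairs that overlapped an HA or dCTCF-antibody peak had nearly the same median as the rest, 14 bp against 13 bp, but held 16 of these 34 distant summits. That is 16 of 442 such pairs, against 18 of 1878 without an HA or dCTCF peak.

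**Figure D2:**
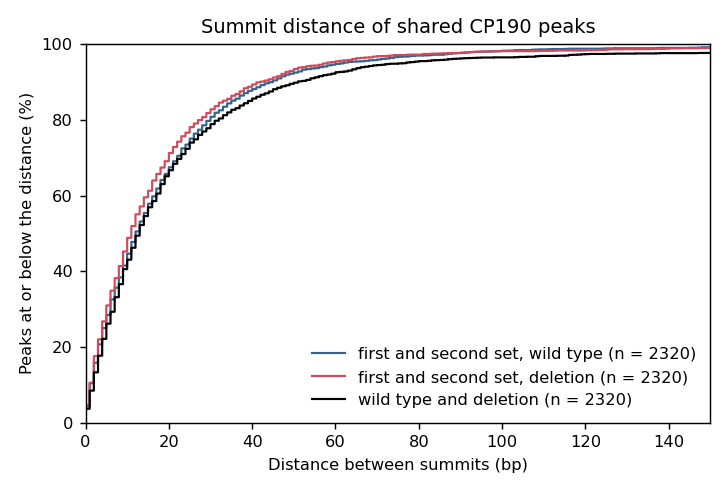
Cumulative share (percent) of the 2320 shared CP190 peaks by distance between summits (bp). The black line compares the 2 genotypes and the coloured lines compare the 2 sets of calls within 1 list; all 3 lines run close together, with medians of 13, 12 and 11 bp.

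The order of the shared peaks by strength did change. Each pair was given its place among the 2320 pairs in each genotype, in percentile points from the strongest, so that both rankings have the same length. The 2 rankings had a Spearman correlation of 0.91 across pairs, which are peaks of the same libraries and not replicates. Between the 2 sets of calls, ranked by −log10 p, the correlation was 0.99 in wild type and 0.99 in deletion flies. A pair is called lowered below when its place was over 10 points weaker in the deletion line, and raised when it was over 10 points stronger. By this rule 296 pairs were lowered (12.8%) and 312 were raised (13.4%). Between the sets of 1 list, 40 pairs moved by over 10 points in wild type (1.72%) and 43 in deletion flies (1.85%). The IDR limit selects for agreement between the sets, so these numbers and the correlation of 0.99 understate technical spread. Places are relative, so that some pairs must move up when others move down.

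Lowered pairs were concentrated where dCTCF was found. Among the 259 pairs whose wild-type CP190 peak overlapped a peak in all 4 HA and dCTCF-antibody lists, 150 were lowered (57.9%, 51.8 to 63.8) and 3 were raised. Among the 1878 pairs that overlapped none of these lists, 122 were lowered (6.50%, 5.47 to 7.70) and 299 were raised (15.9%). The 183 pairs with 1 to 3 of the lists lay in between, with 24 lowered (13.1%, 8.97 to 18.8). The median place of the 259 dCTCF pairs was 25.1 in wild type and 50.9 in deletion flies, and the median of their shifts was 13.5 points. In the same 259 pairs the 2 sets of calls differed by a median of 0.04 points in wild type and −0.26 points in the deletion line, with 1 and 2 pairs over 10 points weaker in the second set.

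**Figure D3:**
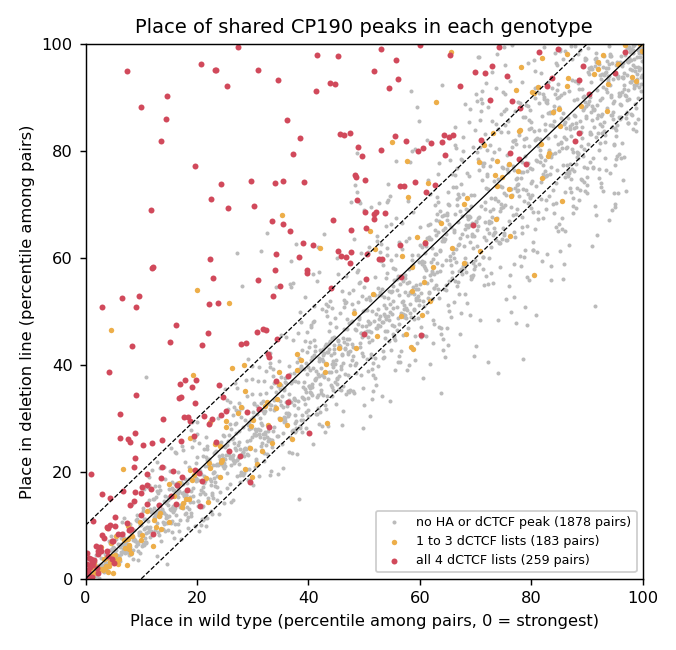
Place of each of the 2320 shared CP190 peaks in wild type (x axis) and in the deletion line (y axis), in percentile points among the pairs with 0 the strongest; dashed lines mark 10 points either side of equal places. Pairs that overlap all 4 HA and dCTCF lists (259, red) lie mostly above the diagonal, whereas 1878 pairs without any such peak (grey) lie along it.

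The dCTCF pairs began stronger than the others, so they were also compared within quartiles of the wild-type ranking. In the strongest quartile 54 of 129 dCTCF pairs were lowered (41.9%, 33.7 to 50.5), against 3 of 380 without any HA or dCTCF peak (0.789%). In the second quartile the numbers were 53 of 67 (79.1%, 67.9 to 87.1) and 30 of 476 (6.30%). In the third quartile they were 38 of 46 (82.6%, 69.3 to 90.9) and 61 of 497 (12.3%). The weakest quartile, where a pair has little room to move down, had 5 of 17 and 28 of 525. HA and CP190 lists share the mouse control, but with dCTCF-antibody lists alone, which use the rat control, 155 of 280 pairs in both lists were lowered (55.4%), against 133 of 1936 pairs in neither (6.87%). Among dCTCF pairs the lowered share ranged over the 5 large arms from 26 of 54 on X (48.1%) to 25 of 41 on 2R (61.0%).

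**Figure D4:**
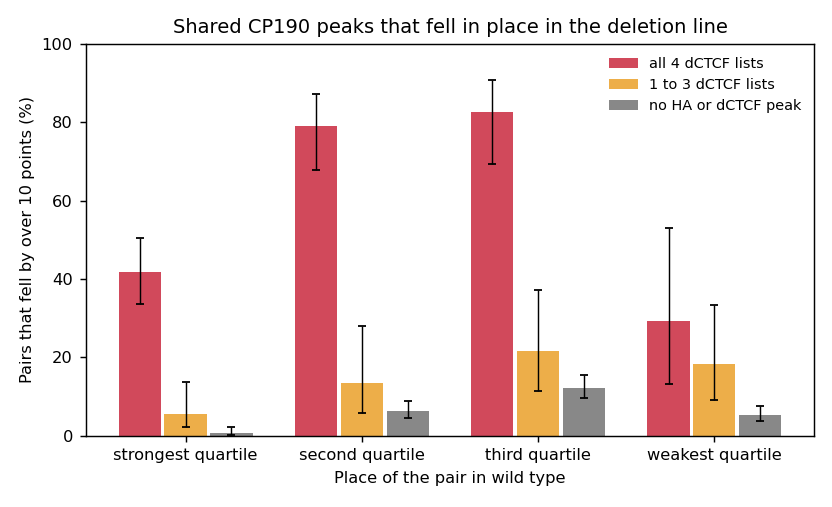
Share of shared CP190 peaks (percent, with 95% Wilson intervals) whose place was over 10 percentile points weaker in the deletion line, by quartile of the wild-type ranking and by overlap with the 4 HA and dCTCF-antibody lists. Red bars, for pairs in all 4 lists, reach 79.1% and 82.6% in the middle quartiles, against 6.30% and 12.3% for pairs without such a peak.

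Peak width, which played no part in the ranking by fold enrichment, differed in the same sites. Over all 2320 pairs the deletion peak was the wider one in 1559 (67.2%), with a median difference of 66 bp. Pairs without an HA or dCTCF peak were wider in the deletion line in 1363 of 1878 cases (72.6%), with a median difference of 80.5 bp. The dCTCF pairs went the other way, with 85 of 259 wider in the deletion line (32.8%) and a median difference of −77 bp. Between the 2 sets of calls of 1 list the second was the wider in 50.7% of wild-type and 50.4% of deletion peaks. Both measures come from the same libraries. The weaker, unpartnered peaks of both lists were also narrower, so width is not independent of enrichment.

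The largest drop in place over all pairs was at raskol, a gene for a Ras GTPase-activating protein. Its CP190 peak at X 17751110 to 17752475, inside the gene, had 36.9-fold enrichment in wild type, with −log10 p of 924 and 952 in the 2 sets of calls. In the deletion line the peak had a fold enrichment of 3.79 and −log10 p of 21.9 and 28.2. The 2 sets agreed closely in each genotype, and the place of the pair went from 7.41 to 94.9 points. Its summit was 1 bp away, and the peak narrowed from 1366 to 353 bp.

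A second such site lay at 2L 3657250 to 3657788 between for, the cGMP-dependent protein kinase of the foraging locus, and Drgx, a homeobox gene. There −log10 p was 721 and 697 in wild type and 31.6 and 44.6 in deletion flies, and the place went from 9.87 to 88.2 points. The third lay at 3R 14088155 to 14089484 between foxo, the forkhead factor of insulin signalling, and Npc2b, where −log10 p was 508 and 541 in wild type and 28.2 and 40.8 in deletion flies. All 3 sites carried HA and dCTCF-antibody peaks in both genotypes.

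The next 5 drops, named after their values were seen, also overlapped all 4 dCTCF lists. They lay at 2L 15643641 to 15644271 beside stol, at 3R 28672031 to 28672623 between Sid and snu, at 3R 16868766 to 16869748 inside lncRNA:iab8 of the bithorax complex, at 2R 15818291 to 15819071 inside tun, and at X 17175381 to 17176288 inside baz, a cell polarity gene. At the iab8 site −log10 p was 315 and 345 in wild type and 28.0 and 34.4 in deletion flies. At baz it was 516 and 542 in wild type and 35.4 and 40.8 in deletion flies. Among all pairs that dropped by over 20 points, 92 of 127 overlapped at least 1 HA or dCTCF peak, against 1 of the 53 that climbed by over 20 points. Over all pairs, whether moved or not, the share with such an overlap was 19.1%.

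Among pairs in the stronger 50% of at least 1 list, the largest climbs were smaller than these drops and lay away from dCTCF. The peak at 2L 16041769 to 16042158 between beat-Ic and CG45084 moved from place 78.6 into the stronger 50% of pairs, with −log10 p of 27.6 and 23.3 in wild type and 206 and 190 in deletion flies. At X 9202623 to 9203241 between su(r), which encodes an enzyme of pyrimidine breakdown, and SmydA-9 the place went from 74.0 to 38.5. At 2L 14032349 to 14033329 inside lncRNA:CR45284 it went from 72.3 to 40.5. None of these 3 overlapped an HA or dCTCF peak of either genotype.

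Wild-type peaks without a deletion partner were more often at dCTCF peaks than those with one. Of the 165 wild-type peaks without a deletion partner, 78 overlapped an HA or dCTCF peak (47.3%, 39.8 to 54.9), against 446 of the 2352 with a partner (interval 17.4% to 20.6%). With both lists limited to their stronger 50%, where a peak also counts as unpartnered if its partner lies in the weaker 50%, 70 of 82 unpartnered wild-type peaks did so (85.4%). When at least 50% of each peak had to overlap, the share was 30.3% (82 of 271). The 326 wild-type CP190 peaks in all 4 dCTCF lists thus had several outcomes in the deletion line. For 64 of them no CP190 peak was called (19.6%), 150 were lowered (46.0%), 106 stayed within 10 points (32.5%), 3 were raised and 3 did not form a simple pair.

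In the wild-type list the contrast was seen in each of 3 bands of enrichment. Among its strongest 20%, 7 of 121 peaks in all 4 dCTCF lists had no partner (5.79%), against 2 of 321 without any dCTCF peak (0.623%). Among the next 30% the numbers were 13 of 106 (12.3%) and 1 of 595 (0.168%), and among the weakest 50% they were 44 of 99 (44.4%) and 84 of 1077 (7.80%). Of the 825 peaks called in the deletion line alone, 42 overlapped an HA or dCTCF peak (5.09%, 3.79 to 6.81), against 447 of 2339 with a partner (19.1%, 17.6 to 20.8). That share of 5.09% became 2.64% when summits had to lie within 100 bp. With both lists limited to their stronger 50% it was 7.88% (32 of 406). Those 406 include peaks whose partner lies in the weaker 50%, so they are not all peaks of the deletion line alone. For peaks in at least 1 of the 4 lists the direction depended on strength, though at the top it rests on 6 peaks. Among the strongest 20% of deletion peaks, 6 of 166 with an HA or dCTCF peak lacked a partner, against 0 of 467 without one. Among the next 30% the numbers were 0 of 140 and 11 of 809, and among the weakest 50% they were 36 of 183 (19.7%) and 772 of 1399 (55.2%). For deletion peaks in all 4 lists the numbers were 1 of 86, 0 of 83 and 11 of 105, from the strongest band to the weakest.

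The 3 strongest wild-type peaks without a partner, at places 1, 5 and 7, were not in all 4 dCTCF lists and are described further on, and the 7 that followed were. At 3L 14111329 to 14112136, between the paralogous HMG-box genes Sox21a and Sox21b, −log10 p was 664 and 610 in the 2 wild-type sets. At X 15594141 to 15595694, between Chsy and sog, a BMP antagonist gene, it was 621 and 655. Both peaks overlapped all 4 dCTCF lists, and neither overlapped a deletion CP190 peak. The following 5, named after their values were seen, were all in the 4 lists too, at X 10832234 beside sbr, X 15653305 beside CG8117, X 17531542 inside CG43658, 3R 7809848 between CG2993 and sgll, and 3L 3616225 inside CG10357, with 20.9-fold to 27.6-fold enrichment.

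The very top of the lists behaved differently. Of the 20 strongest peaks, 3 lacked a partner in each list, whereas 0 of the 230 peaks at places 21 to 250 did so in wild type (up to 1.64%) and 2 of 230 in the deletion line. In wild type the 3 were the peak of place 1, between brn and cib at X 4105239 to 4106756 (130-fold), the peak of place 5, beside the aldolase gene Ald1 at 3R 26260631 to 26262829 (111-fold), and the peak of place 7, inside CG34462 at 3L 8328349 to 8330219 (101-fold). The peaks of places 1 and 7 overlapped no HA or dCTCF peak, and that of place 5 overlapped the wild-type dCTCF-antibody list alone. In the deletion list they were the peaks of place 2, between Lk6 and l(3)neo38 at 3R 11764017 to 11765277 (139-fold), of place 3, between Glut3 and lncRNA:CR45750 at 3R 16797867 to 16799477 (136-fold), and of place 14, between the EGF receptor ligand gene vn and CG5568 at 3L 5868915 to 5871294 (105-fold). These 3 overlapped 2, 4 and 3 of the HA and dCTCF-antibody lists, in that order. Both lists end at a global IDR of 0.01, and these 6 peaks had values of 0.00497 to 0.00948. At places 21 to 250 the median global IDR was 0.00149 in wild type and 0.00236 in deletion flies. Over the 20 strongest peaks it was 0.00350 and 0.00512, so high values were not particular to the unpartnered ones. The highest in the deletion list, 0.00953, was that of the peak of place 1, which had a partner. Whether the IDR limit removed the counterparts of these 6 peaks was not tested.

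Below that range the strongest deletion peaks without a partner lay inside Tet, a dioxygenase gene, at 3L 2851176 to 2852544 (82.1-fold, place 52, −log10 p of 2717 and 2727) and between osp and CG15282 at 2L 14705734 to 14707440 (53.9-fold, place 141, −log10 p of 1420 and 1531). Their global IDR was 0.00277 and 0.00225. Each overlapped a deletion HA peak and both dCTCF-antibody lists but no wild-type HA peak. The next one away from dCTCF was at X 6719252 to 6719953 between CG14441 and CG3168, with 10.6-fold enrichment at place 1199.

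Strong sites in both genotypes included some at dCTCF. The wild-type peaks of places 2, 3 and 4 lay between the nuclear receptor gene Hr51 and the netrin receptor gene unc-5 (2R 15339020 to 15340089), inside sick (2L 19887094 to 19888922) and inside siz (3L 21049172 to 21050456). All 3 were in the 4 dCTCF lists. In the deletion list they held places 42, 19 and 8 of 3164. Fold enrichment was 120, 114 and 111 in wild type and 86.8, 100 and 122 in the deletion line, in that order. Their places among pairs became weaker by 1.64, 0.60 and 0.13 points, which are small steps at the top of a long ranking. The deletion peaks of places 1, 4 and 5, within DIP-alpha and ppk8 (X 3569475 to 3571941), inside Wdr62 (2L 1908612 to 1910517) and beside the immune peptide gene BomBc3 (3R 22093300 to 22094950), held places 8, 14 and 15 in wild type and overlapped no HA or dCTCF peak. Peaks with and without dCTCF thus stood at the top of both CP190 lists.

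Positions were then set against protein-coding genes, using both ends of a gene because the annotation at hand gives no strand. On the chromosome arms, 503 of 823 unpartnered deletion peaks (61.1%, 57.7 to 64.4) had a summit at most 200 bp from such an end. Among deletion peaks with a wild-type partner the share was 48.0% (1121 of 2333, 46.0 to 50.1), and among unpartnered wild-type peaks it was 44.2% (73 of 165, 36.9 to 51.9). With both lists limited to their stronger 50% the share among unpartnered deletion peaks was 47.8% (194 of 406), against 42.1% for those with a partner. Those 406 include peaks whose partner lies in the weaker 50%, so they are a different class from the 823. The median distance to a gene end was 110 bp for unpartnered deletion peaks and 217 bp for the others of that list. Fewer unpartnered deletion peaks lay between protein-coding genes, 52.0% against 62.5% of deletion peaks with a partner. Those that did were in shorter gaps, with a median of 497.5 bp against 1062.5 bp. As a share of each whole class, peaks between genes at most 1000 bp apart were close, at 33.5% (30.4 to 36.8) and 30.5% (28.7 to 32.4).

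Counted by gene, 1473 of 13922 protein-coding genes (10.6%) had a wild-type CP190 summit within 200 bp of an end, and 2023 (14.5%) a deletion summit. Both genotypes had one at 1312 genes, wild type alone at 161 and the deletion line alone at 711. Of the 161, 70 had a deletion summit within 1000 bp, and of the 711, 106 had a wild-type summit within 1000 bp.

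Ribosomal protein genes, which are transcribed at high levels in nearly all cells, carried CP190 most often among the 8 gene lists. Of 93 members, 38 had a wild-type summit (40.9%) and 43 a deletion summit (46.2%), 33 of them in both genotypes. The strongest of these peaks in both lists was at RpL30, with a summit at 66 bp in wild type (place 135 of 2517, 42.4-fold) and at 59 bp in the deletion line (place 86 of 3164, 66.9-fold). RpL3 followed in wild type, with 37.6-fold enrichment at place 167, 190 bp from the gene end. The nearest deletion summit there was 202 bp away, just past the limit, at place 114, so RpL3 is counted for wild type alone. The weakest wild-type peak of the list was at RpS25, with 2.40-fold enrichment at place 2514. The 10 members with a deletion summit alone ranged from place 1784 of 3164, at a peak shared by RpS14a and RpS14b (6.16-fold), to place 3098 at RpLP1. All lay below the median enrichment of that list, 7.27-fold. RpS14a had a wild-type summit 261 bp away, just past the limit, at place 303 with 25.9-fold enrichment.

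Proteasome genes had 6 wild-type and 10 deletion members of 48 (12.5% and 20.8%), against 10.6% and 14.5% of all protein-coding genes, whose number also grew from 1473 to 2023. The 4 added in the deletion line were Rpt6, Prosbeta1, Prosbeta2R2 and Rpt2, at places 1876, 3131, 3128 and 2686. Prosbeta2R2 had a wild-type summit 231 bp away, just past the limit, at place 375 with 23.0-fold enrichment. For Rpt6, Prosbeta1 and Rpt2 the nearest wild-type summits were 6414, 12450 and 6748 bp away. Neuronal ion channel genes had 2 and 3 of 19 (10.5% and 15.8%), close to the shares of all genes, with Sh, a voltage-gated potassium channel gene, and nAChRalpha7, an acetylcholine receptor gene, in both genotypes. Muscle structural genes had 1 of 16 in each genotype (6.25%), Mlc1, a myosin light chain gene. The lists are small, so these shares rest on few genes.

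**Figure D5:**
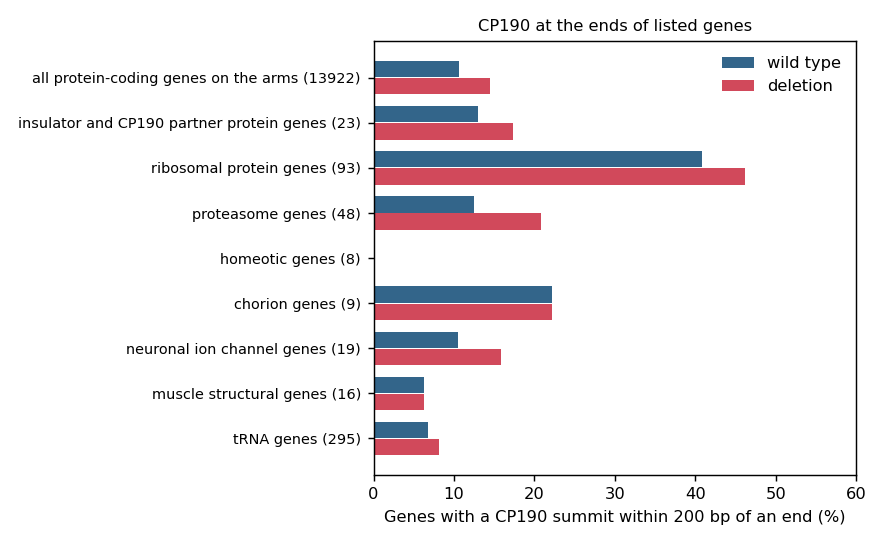
Share of genes (percent) with a CP190 summit within 200 bp of either end, for all protein-coding genes on the arms and for 8 gene lists, by genotype; the number of genes stands in parentheses. Ribosomal protein genes stand at 40.9% and 46.2%, against 10.6% and 14.5% of all genes.

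Genes for insulator proteins and partners of CP190 had a summit within 200 bp about as often as all protein-coding genes, at 3 of 23 members in wild type (against 10.6% of all) and 4 of 23 in deletion flies (17.4%, against 14.5%). Of the members, pita, Chro and Ibf1 had a summit within 200 bp in both genotypes and SMC1, a cohesin subunit gene, in the deletion line alone. At pita, which encodes a zinc-finger insulator protein, the summit was 2 bp from the gene end in wild type (place 2489 of 2517) and 5 bp in the deletion line (place 2309 of 3164). At Chro, the gene for Chromator, it was 123 and 113 bp away, at places 1868 and 1512. At Ibf1, whose product binds insulators with CP190, it was 180 and 61 bp away, at places 1662 and 2221. The strongest peak within 1000 bp of a member was beside su(Hw), where the summit lay 498 and 501 bp from the gene end at places 267 and 222, with 27.8-fold and 43.4-fold enrichment. The nearest summits to CTCF, the dCTCF gene on 3L, were 8282 and 8277 bp away, and those to Cp190 on 3R were 8405 and 8453 bp away. For SMC3 the wild-type distance was 28965 bp, for dwg 48085 bp, for Dref 66568 bp and for vtd, a cohesin gene, 933298 bp.

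Other members of that list with a summit past the limit but within 1000 bp included pzg, at 250 and 322 bp, and Ibf2, at 643 and 524 bp, where the peak is the one at Ibf1. Trl, the gene for GAGA factor, had summits at 931 and 964 bp. BEAF-32 had one at 1012 bp in both genotypes. The remaining members lay at 3482 bp for mod(mdg4), 6295 and 8477 bp for Elba2 and insv in wild type, and farther for ZIPIC, Elba1, M1BP, Clamp and Nipped-B.

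Homeotic genes, which set segment identity, had no summit within 200 bp of an end in either genotype at any of the 8 members. With 10.6% and 14.5% of all protein-coding genes at such a summit, a list of 8 is too short to set these genes apart. Ubx came closest, with summits at 289 bp in wild type (place 340, 24.5-fold) and 270 bp in the deletion line (place 441, 27.6-fold). The nearest peak to Abd-B was 2506 and 2499 bp away, at places 112 and 169. For abd-A the nearest wild-type summit was 39317 bp away and the nearest deletion summit 8548 bp, the latter being the peak of place 3 described above.

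The widest peak of each list was at chorion genes, which encode eggshell proteins and are amplified as DNA in ovarian follicle cells. In wild type the widest peak covered 14441 bp at 3L 8723873 to 8738313, with its summit between Cp15 and Cp19 and 5.75-fold enrichment. Its counterpart in the deletion line covered 20532 bp at 3L 8716426 to 8736957 with 12.8-fold enrichment, and the summits were 14 bp apart. Both overlapped all 4 HA and dCTCF lists. The peak beside it inside Prm, the paramyosin gene, was the second widest in both lists, with 7352 and 7125 bp. The third widest, on 2R between CG6426 and CG6421, had 5215 and 5188 bp and overlapped no HA or dCTCF peak. A peak 55 and 48 bp from the end of Cp7Fb on X was at places 1331 and 920, with 6.59-fold and 14.5-fold enrichment. The part of DNA copy number in these values was not tested.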

How the data were processed

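The labels place 14 libraries in 8 groups, of which the 2 CP190 groups and the mouse preimmune library are reported here. Both replicates of a group are named with a single list in the labels. Submitters' processing notes list cutadapt, Bowtie2 version 2, Picard and deepTools, and the builds dm6 and dm3, with no role for each. The peak caller and its settings are not given in the sources used here.

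Deposited lists have 20 columns in the layout of the IDR tool. From that layout, fold enrichment was deposited as a linear ratio between ChIP and preimmune DNA, the deposited −log10 values belong to p-values, q-values, local and global IDR, and the deposited other columns are summit offsets in bp. The interval and p-value of a peak are those of the first set. The second set has no fold enrichment, so its −log10 p replaced the planned fold enrichment.

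Positions are 1-based. Scaffold names point to Release 6, whose RefSeq gene table gave gene names and ends. As a check, 47.8% of wild-type summits lay within 200 bp of a protein-coding gene end, against 9.80% after a move of 5000 bp. The table holds no strand and no sequence, so promoters, motifs and protein residues planned for printing are not analysed here. All fixed gene names but 1, Mzfp1, matched a symbol or synonym.

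An overlap of 1 bp or more made 2 peaks shared, and bedtools 2.31.1 gave the same numbers in both directions. On a simulated wild-type list of 2517 peaks, 200 of 200 removed peaks were found missing. There, 200 of 200 peaks set far lower in fold enrichment were called lowered, against 0 of 2117 others, which were given only slight noise. The simulation checks the counting and gives no rate of wrong calls for the real lists. Members, gene lists and rules were chosen with earlier results of these data known. The named peaks follow a rule: the 5 strongest of each list and of its unpartnered peaks, the 3 widest, the 3 pairs with the largest change of place in each direction among pairs in the upper 50% of a list, and all insulator and chorion genes. The rule on changes of place by 10 points, the comparison by dCTCF overlap and quartile, and pair widths were chosen after the data were examined. Python 3.11.15, numpy 2.4.6, pandas 2.3.3, scipy 1.17.1, statsmodels 0.14.6 and matplotlib 3.10.9 were used.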

Additional observations from a re-analysis of the deposited data

How the results depend on the processing

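For 34 results, 124 alternative values were computed. Shares were compared with the interval of the reported share, and numbers of peaks or genes by a factor of 1.5. By these limits 71 values stayed and 53 moved. In overlap with dCTCF no direction between partnered and unpartnered wild-type peaks turned, nor did that of lowered shares between dCTCF pairs and the rest. For summits near gene ends the wild-type direction turned within 100 bp, with 32.7% of partnered and 33.9% of unpartnered peaks. The cause of the 53 moves was not tested, except that a wider or narrower distance to genes must raise or lower such shares. The share of wild-type peaks with a partner was 89.2% when 50% of each peak had to overlap, 91.5% and 89.6% with summits within 200 and 100 bp, 87.9% with lists of equal length and 92.1% at a global IDR of at most 0.005. The share of deletion peaks with a partner was 71.0%, 71.3% (100 bp), 87.4% and 76.1% in the same order. Overlap of partnered wild-type peaks with dCTCF was 14.2% (50% overlap), 15.5% and 14.2% (summits), 23.1% (stronger 50%) and 16.5% (rat control alone). For partnered deletion peaks it was 13.8%, 15.6%, 14.1%, 23.3% and 16.7%. For unpartnered wild-type peaks it was 30.3%, 34.4% (100 bp), 85.4% (stronger 50%) and 37.2% (equal length), and for unpartnered deletion peaks 3.72% and 2.64% (summits) and 7.88% (stronger 50%). Where a setting shortened the lists, a peak whose partner was cut off counts as unpartnered. Summits near gene ends in the stronger 50% made up 42.3% and 42.1% of partnered wild-type and deletion peaks and 47.8% of unpartnered deletion peaks. Within 1000 bp the shares were 71.2%, 63.6%, 71.2% and 73.8% and within 100 bp 32.7%, 33.9%, 32.4% and 48.5%, in the order partnered and unpartnered wild type, then partnered and unpartnered deletion. Within 1000 bp, 2819 genes had a wild-type and 3623 a deletion summit, and 12 of 16 gene list counts moved past the factor. Lowered pairs in the stronger 50% made up 15.4% of all and 8.98% of those without dCTCF. The rat control alone, and lists without their 20 strongest peaks, were added after the data were examined. Depth is unknown, and no replicate could be left out. No paired analysis was possible because both replicates of a group share 1 list.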

Other observations

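Of 295 genes for transfer RNAs, 20 had a wild-type CP190 summit within 200 bp (6.78%) and 24 a deletion summit (8.14%), with 18 in both. The shares of all protein-coding genes were 10.6% and 14.5%. Genes for transfer RNAs are much shorter, so the reach of 200 bp from both ends covers less sequence. Whether gene length accounts for the lower shares was not tested. Among the transfer RNA genes, tRNA:Thr-AGT-1-4 on 3R had a summit 92 bp away in wild type at place 124 of 2517, and tRNA:Leu-TAG-1-2 on 3R one at 150 bp at place 194. The neighbouring initiator genes on 3L, tRNA:iMet-CAT-1-4 and tRNA:iMet-CAT-1-5, shared a wild-type peak at place 154 and a deletion peak at place 201. Outside the 6 chromosome arms, wild type had 6 peaks and the deletion line 8, and all 6 of wild type had a partner.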
